A study of Mus musculus with 7 samples.

Results

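Axon guidance ligands and receptors were examined as a group of 72 genes in neuron-enriched mouse dorsal root ganglia, 37 ligand genes and 35 receptor genes of 54309 genes in the table. The genes were those whose names match a rule, and the group was chosen with earlier results of these data known. It comprised the semaphorins of classes 3 to 7, the plexins, the neuropilins, the Eph receptors, the ephrins, the Slits, the Robo receptors, the netrins and netrin-Gs, the Unc5 receptors, Dcc and Neo1. All samples are labelled as male C57bl/6 mice of 6 to 8 weeks with an injured sciatic nerve (sex-linked transcripts in ZT20 replicates 2 to 4 go against the labelled sex), and the lumbar (L4-6) ganglia were collected 72 h after the injury. In the ZT20 group (4 samples) injury and collection fell at Zeitgeber time 20, which counts hours from lights on, and in the ZT8 group (3 samples) at Zeitgeber time 8, so the time of injury and the time of collection cannot be told apart. The ganglia were digested with Dispase II, Collagenase II and papain, neurons were enriched on a 15% albumin gradient, and total RNA went into low-input libraries. No uninjured ganglia were used here, so the values compare injured with injured tissue at different clock times.

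Guidance cues steer growing axons by binding receptors on the growth cone. Semaphorins act through plexins, most secreted class 3 semaphorins additionally need a neuropilin (Sema3e binds Plxnd1 without one), Slits repel axons through Robo receptors, netrins attract through Dcc and Neo1 or repel through Unc5 receptors, and membrane-bound ephrins signal through Eph receptors on the neighbouring cell. In dorsal root ganglia these systems pattern the central and peripheral sensory axons during development, and several of them remain expressed in adult sensory neurons.

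Values are TPM (transcript abundances normalized within each sample), which are scaled by transcript length, so levels can be compared between genes, while the sequencing depth behind each value is unknown. Of the 72 genes, 48 had a mean of at least 1 TPM over the 7 samples and were tested. The other 24 did not pass that filter. Their highest value in any sample ran from 0.0378 TPM for Ntn4 to 1.55 TPM for Ephb1, and 17 of them were listed at 0 in at least 1 sample. They comprised 8 of the 14 Eph receptors (Epha1, Epha2, Epha8, Epha10 and Ephb1 to Ephb4), the semaphorins Sema3a, Sema3g, Sema4g and Sema6b, and the plexin Plxnb1. The ephrins Efna4 and Efnb3, the receptors Robo3, Robo4, Unc5b, Unc5d and Dcc, and the cues Slit3, Ntn1, Ntn4 and Ntn5 completed them. Dcc, the classical netrin receptor, reached 0.379 TPM at most, and Ntn1 reached 0.315 TPM.

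Expression was concentrated in a few genes. Efna1 had the highest mean over all 7 samples (71.3 TPM), followed by Sema4f (54.8 TPM), Efna5 (52.4 TPM), Robo2 (42.4 TPM), Sema6a (41 TPM) and Sema3b (38.4 TPM). Together these 6 genes, 5 ligands and 1 receptor, held 50.2% of the summed TPM of the group. The next in order were Nrp1 (29.7 TPM), Nrp2 (23.1 TPM) and Plxnc1 (21.1 TPM), and 14 genes had a mean of at least 10 TPM. The order of the first 6 was not separated by the spread between samples, since the range of Efna1 over the 7 samples (58.7 to 89.1 TPM) reached down to that of Sema3b (22.3 to 58.9 TPM).

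The comparison asks which guidance genes differ in level between ganglia injured and collected at ZT20 and those at ZT8. At ZT20, 14 of the 48 tested genes rose and 0 fell by limma on log2(TPM + 1) at an adjusted p under 0.05, with 23 higher (47.9%) and 0 lower at an unadjusted p under 0.05, against 26% of all tested genes higher and 8.61% lower at that p. The 14 were 5 plexins (Plxna2, Plxna3, Plxna4, Plxnc1, Plxnd1), Nrp2, both tested Robo receptors (Robo1, Robo2), the netrin and RGM receptor Neo1, and 5 ligands (Sema5a, Sema6d, Efna5, Efnb2, Ntng1). Plxna3, Robo1 and Neo1 had a ZT8 mean under 1 TPM and reached the filter only through ZT20, the group where they are high, as did Unc5c, which did not pass, so their part in these counts is no support; of the 43 tested members with both group means at 1 TPM or more, 11 rose (25.6%, against 12.9% of all 13772 such genes). The mean TPM of the 14 at ZT20 was 2.01 to 4.25 times that at ZT8. Sema5a, Plxna2, Plxna4 and Plxnc1 also passed with any 1 library left out, and the other 10 lost the call without at least 1 library. Among all 14800 tested genes 16.4% differed, 12.8% higher and 3.61% lower at ZT20. Of the tested members 29.2% rose; since earlier results were known when the group was chosen, that share is a description. With median-ratio scaling the background became 7.36% higher and 8.47% lower, and the members 9 higher and 0 lower. For 22 tested members the lowest ZT20 sample exceeded the highest ZT8 sample (45.8% of those tested, against 24.5% of all tested genes), and for 0 tested members the order was the reverse (8.72% of all tested genes). The 22 include the 4 that reached the filter only through ZT20, and with both group means at 1 TPM or more it was 18 of 43 (41.9%, against 23.7% of such genes).

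The median log2 difference of the tested members was 0.63, against 0.23 for all tested genes. Of the 48, 39 had a positive difference and 9 a negative one. How samples are scaled to each other sets the median of all genes. It became 0.019 with median-ratio scaling, with 0.46 for the members, and 0.0046 with quantile normalization, with 0.34 for the members. Of 21 tested receptors 9 rose (42.9%), and of 27 tested ligands 5 rose (18.5%), against 12.8% of all tested genes. Their medians were 0.64 and 0.63. The 4 that reached the filter only through ZT20 were all receptors. With both group means at 1 TPM or more, 6 of 17 receptors (35.3%) and 5 of 26 ligands (19.2%) rose, against 12.9% of such genes. The medians were then 0.54 and 0.64 and stood in the other order. Whether those proportions differ was not tested. The receptors had the longer transcripts (median 6907 nt, against 4482 nt for the ligands), and with a correction for transcript length and GC content 1 receptor and 1 ligand passed, with medians of 0.13 and 0.20.

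**Figure D1:**
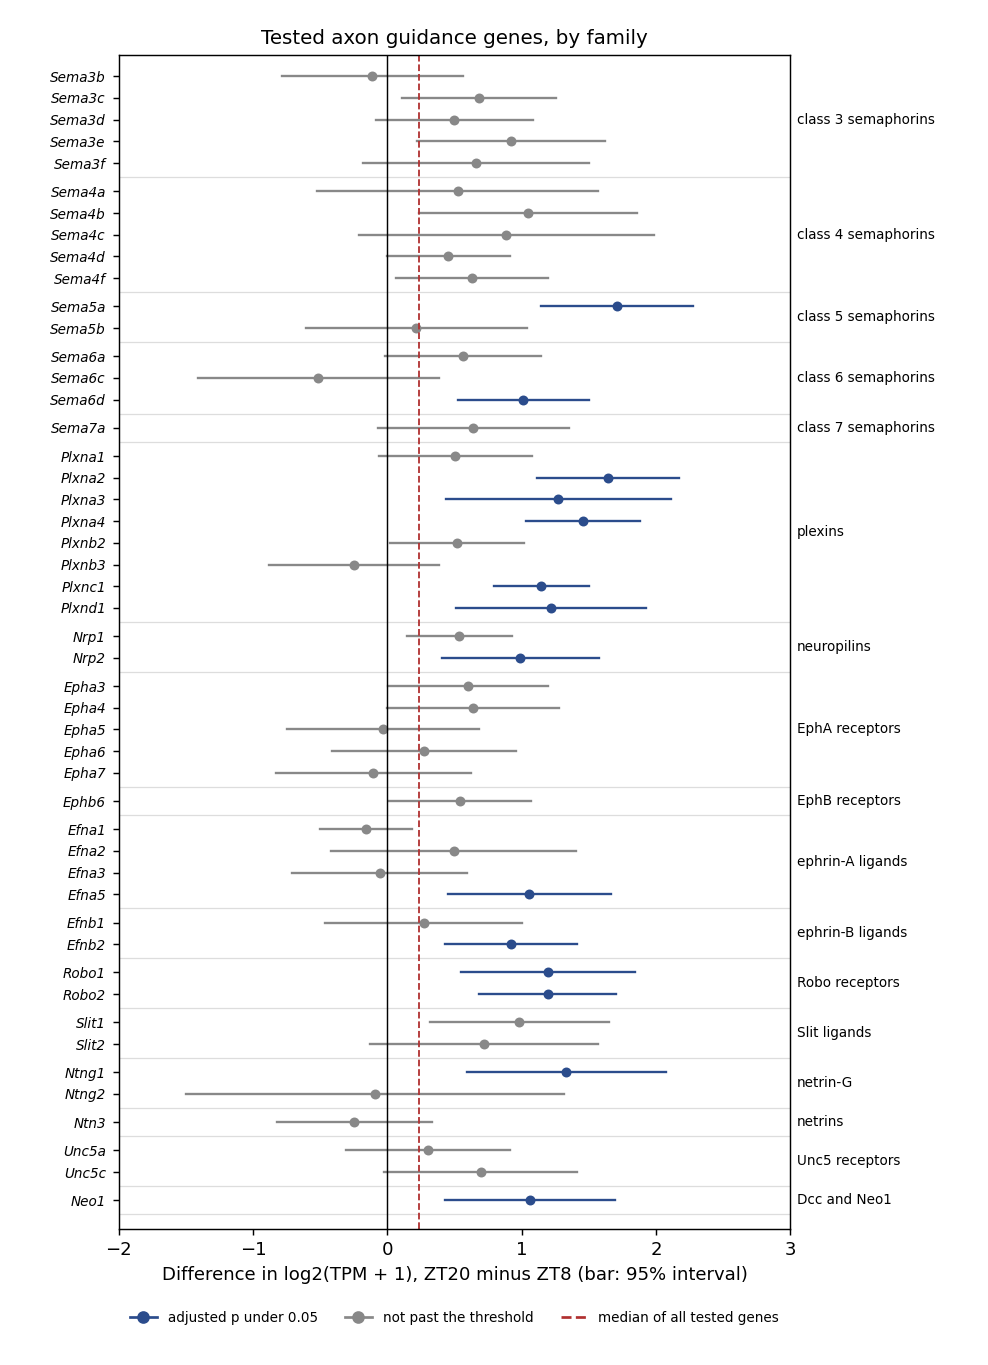
Difference in log2(TPM + 1), ZT20 minus ZT8, of the 48 tested guidance genes by family, with 95% intervals from limma; blue points passed an adjusted p of 0.05 and the dashed line marks the median of all tested genes (0.23). The 14 blue points all lie right of 0, and plexins and Robo receptors hold 7 of them.

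The libraries differed in ways that touch these results. The number of genes above 0 TPM ran from 24192 to 25238 at ZT20 and from 18297 to 22973 at ZT8, with ZT8 replicate 2 the lowest, and that library held the lowest value of the 7 for 20 of the 48 tested members. ZT20 replicate 4 held the highest value for 20 of the 48. The Y-linked genes Ddx3y, Eif2s3y and Uty were listed at 0 in ZT20 replicates 3 and 4, whose Xist was 2.21 and 2.30 TPM, although all mice are labelled male. ZT20 replicate 2 held both kinds of transcript, with Xist at 1.08 TPM, Ddx3y at 11.7 TPM and Eif2s3y at 14.6 TPM, while Xist was 0.00467 TPM in ZT20 replicate 1 and at most 0.00208 TPM at ZT8. Without replicates 3 and 4, a fit that keeps replicate 2, 0 genes of the whole table passed the limma test, and 13 members (27.1%) were higher at an unadjusted p under 0.05, against 12.4% of all tested genes. Without replicates 2 to 4, a fit added after seeing the data in which the lone ZT20 sample is assumed to vary like the ZT8 samples, 0 genes passed. In it 4 members (8.33%) were higher at an unadjusted p under 0.05, against 5.01% of all tested genes, and the members' median was 0.51, against 0.22 for all genes. Library names used numbers at ZT20 and letters at ZT8, so any batch behind them and the group cannot be told apart. Nothing in the labels says how many animals a sample holds, and p-values measure only the spread between these samples.

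Neuronal markers were high in all 7 samples (Tubb3, 2380.1 to 4237 TPM), 2 of 10 rose (Elavl4, Syt1) and 1 fell (Stmn3). Glial RNA was present beside them. Satellite glia markers summed to 7501 to 9166 TPM at ZT20 and 12780 to 15492 TPM at ZT8, Apoe and Fabp7 fell, and 0 of the 8 rose. Schwann cell markers (0 of 8 called, 1 with an unadjusted p under 0.05) summed to 1139 to 1284 TPM at ZT20 and 917 to 1325 TPM at ZT8. Macrophage markers summed to 104 to 153 TPM at ZT20 and 158 to 360 TPM at ZT8, with 1 of 8 higher (Mrc1) and 1 lower (C1qa). Endothelial markers were low apart from Egfl7 (97.3 to 188 TPM), which fell, and the endothelial markers Cdh5 and Tek were at or below 0.874 TPM in every sample. Of the plasma and B cell markers 1 of 5 tested fell (Mzb1), and fibroblast (0 of 5) and pericyte markers (0 of 2) had none past the limma threshold and 1 each at an unadjusted p under 0.05. A score of neuronal minus non-neuronal markers was 5.20 to 5.60 at ZT20 and 4.52 to 5.10 at ZT8. The groups did not overlap in it, so a fit with the score as covariate cannot tell cell composition and group apart. With that score as a covariate 0 members passed (16, or 33.3%, higher at an unadjusted p under 0.05, against 14.2% of all tested genes), and 0 genes of the whole table passed. Of the 14 differences 11 were larger in that fit and 3 smaller. The members' median was 0.96, against 0.63 without the covariate (0.30 and 0.23 for all genes), and the difference of Robo2 was 1.68, against 1.19. Those of Plxna3 (0.95, against 1.27), Plxna4 (1.4, against 1.46) and Robo1 (1.08, against 1.2) were the smaller ones. In bulk samples, fewer cells of a type and less RNA per cell cannot be told apart. The part of these cell types in the members' differences was not tested, since the fit with the score cannot separate it from the group.

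Because the groups differ in clock time, the promoters were read for the E-box CACGTG, the element bound by the CLOCK and BMAL1 heterodimer. RefSeq promoters (GRCm38.p6, from 250 bases before to 50 after the gene's start) were found for 62 of the 72 genes and 13 of the 14 that rose, 78 promoters in all. The E-box stood in 5 of the 78 (6.41%), against 7.15% of all 32851 promoters in that table, so its share was close to that of promoters at large. Among the 16 promoters of the genes that rose, 2 held it (12.5%), 1 of the 2 listed for Sema6d and 1 of the 3 for Robo2. It also stood in 1 of 2 for Sema4b and in the single promoters of Sema3e and Epha8. The 5 stretches of 30 bases that hold it are given 5′ to 3′ on the gene's strand with the E-box in capitals, so that the clock element of each gene can be set beside its values.
Sema6d: cgagcgcagaagCACGTGggctaagggggt
Robo2: tcaggctcgcctCACGTGgggaggagggag
Sema3e: gatgcggcgaggCACGTGggctggagacac
Sema4b: ggtgcggcggccCACGTGaccaccttccct
Epha8: ggcgggcgtgtgCACGTGctgccggccggt
In GRCm38.p6 these lie at chr2:124089934-124089963 (plus strand, E-box 23 bases before 1 of the annotated starts of Sema6d), chr16:75447294-75447323 (minus strand, 18 bases before 1 of those of Robo2) and chr5:14025287-14025316 (plus strand, 23 bases after the start of Sema3e). The windows of Sema4b and Epha8 lie at chr7:80198474-80198503 (plus strand, 102 bases before the start) and chr4:136956947-136956976 (minus strand, 148 bases before it). Sema3e and Sema4b did not pass the test (limma adjusted p = 0.0712 and 0.0758), although their groups did not overlap, and Epha8 was below the filter. The D-box TTANGTAA was found in 0 of the 78 promoters (2.32% of all promoters) and the AP-1 element TGANTCA in 3 of the 78 (7.81% of all). Each motif was searched on both strands, and a match describes the letters in the window and not binding.

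Among the semaphorins, 2 of 16 tested genes rose (12.5%, against 12.8% of all tested genes), both transmembrane ligands. Sema5a (ENSMUSG00000022231, chromosome 15), a class 5 semaphorin with thrombospondin repeats that can attract or repel axons, had 11.7, 8.75, 12.6 and 14.7 TPM in ZT20 replicates 1 to 4 and 3.82, 2.0 and 3.11 TPM in ZT8 replicates 1 to 3. Every ZT20 value was more than 2 times the highest ZT8 value. The means were 11.9 ± 2.48 TPM at ZT20 (SD, n = 4) versus 2.98 ± 0.915 TPM at ZT8 (SD, n = 3), a log2 difference of 1.71 (SE 0.25, limma adjusted p = 0.00617), the largest of the group on this scale. With a pseudocount of 0.1 the differences of Plxna3 (2.51) and Neo1 (2.16) exceeded that of Sema5a (1.99), and the ratio of means was higher for Neo1 (4.25) than for Sema5a (4.01). Sema6d (ENSMUSG00000027200, chromosome 2), a ligand of class A plexins, had 19.7, 15.9, 25 and 27.9 TPM in ZT20 replicates 1 to 4 and 10.9, 10.9 and 8.95 TPM in ZT8 replicates 1 to 3. Its lowest ZT20 value, in replicate 2, still exceeded the highest at ZT8. Mean levels of Sema6d were 22.1 ± 5.34 TPM at ZT20 (SD, n = 4) versus 10.2 ± 1.12 TPM at ZT8 (SD, n = 3), a log2 difference of 1.01 (SE 0.21, limma adjusted p = 0.0182).

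Of the remaining transmembrane and anchored semaphorins, the most abundant did not pass. Sema4f, the most abundant semaphorin, measured 53.7, 57.4, 69.7 and 75.1 TPM in ZT20 replicates 1 to 4 and 56.1, 26.4 and 45.1 TPM in ZT8 replicates 1 to 3. The groups overlapped, because ZT8 replicate 1 was above ZT20 replicate 1, and ZT8 replicate 2 was the lowest of all. The log2 difference of 0.63 (SE 0.25, limma adjusted p = 0.112) had a 95% interval from 0.063 to 1.20. Sema6a, which binds Plxna2 and Plxna4, measured 39.1, 42.4, 44.7 and 63.6 TPM in ZT20 replicates 1 to 4 and 42.2, 34.1 and 21 TPM in ZT8 replicates 1 to 3, again with overlap, and a log2 difference of 0.56 (SE 0.26, limma adjusted p = 0.154). Sema7a, the anchored ligand of Plxnc1, was low at 3.65, 1.69, 3.43 and 3.98 TPM in ZT20 replicates 1 to 4 and 1.96, 0.924 and 2.14 TPM in ZT8 replicates 1 to 3. Its groups overlapped through ZT20 replicate 2, with a log2 difference of 0.64 (SE 0.31, limma adjusted p = 0.179). Sema6c had the most negative difference of the group at −0.51 (limma adjusted p = 0.379).

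Class 3 semaphorins, the secreted ligands of the neuropilins, had 0 of 5 tested genes past the threshold, where 12.8% of all tested genes were called higher. An unadjusted p under 0.05 by limma was reached by 2 of the 5, and by 5122 of all 14800 tested genes. Sema3b was by far the most abundant of them, with 34.9, 30.1, 35.6 and 43.4 TPM in ZT20 replicates 1 to 4 and 58.9, 22.3 and 43.6 TPM in ZT8 replicates 1 to 3. The ZT8 samples spanned the whole ZT20 range, and the log2 difference of −0.11 (SE 0.30, limma adjusted p = 0.816) had an interval from −0.79 to 0.57. The other tested members, Sema3c, Sema3d, Sema3e and Sema3f, had differences of 0.50 to 0.92, none past the threshold. Sema3e, the ligand of Plxnd1, and Sema3d had no overlap between groups. Without ZT8 replicate 2, 3 of these genes (Sema3c, Sema3e, Sema3f) passed, in a fit that called 16% of all genes higher. Sema3a, the best-known repellent of sensory axons, reached no more than 0.551 TPM. Of class 4, 0 of 5 tested genes passed (2 with an unadjusted p under 0.05), with differences from 0.45 to 1.05. With 5 tested genes each, neither class can be set apart from the shares of all genes given above.

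Plexins, the semaphorin receptors, held the most calls of any family, 5 of 8 tested (62.5%, against 12.8% of all tested genes called higher), with a median log2 difference of 1.18. Without Plxna3, which reached the filter only through ZT20, it was 4 of 7 (57.1%) and 1.15. The family median stayed positive with median-ratio scaling (0.95), quantile normalization (0.84) and a correction for transcript length and GC content (0.48), with 3, 3 and 1 genes called. Of all tested genes 7.36%, 6.91% and 3.58% were called higher in those fits. Plxna2 (ENSMUSG00000026640, chromosome 1), a receptor of class 6 semaphorins and a partner of neuropilins, had 24.8, 19.8, 25.9 and 29.2 TPM in ZT20 replicates 1 to 4 and 9.31, 4.9 and 8.21 TPM in ZT8 replicates 1 to 3. The groups were far apart, the lowest ZT20 value being more than 2 times the highest at ZT8. Its means were 24.9 ± 3.87 TPM at ZT20 (SD, n = 4) versus 7.47 ± 2.29 TPM at ZT8 (SD, n = 3), a log2 difference of 1.64 (SE 0.23, limma adjusted p = 0.00573). Plxna4 (ENSMUSG00000029765, chromosome 6), which transmits class 3 repulsion with Nrp1, had 12.6, 13.2, 12.9 and 12.3 TPM in ZT20 replicates 1 to 4 and 3.42, 5.11 and 3.66 TPM in ZT8 replicates 1 to 3. The ZT20 values were tightly grouped and all above those at ZT8. Means of Plxna4 were 12.7 ± 0.383 TPM at ZT20 (SD, n = 4) versus 4.06 ± 0.912 TPM at ZT8 (SD, n = 3), a log2 difference of 1.46 (SE 0.19, limma adjusted p = 0.00398), the lowest adjusted p of the group.

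Plxnc1 (ENSMUSG00000074785, chromosome 10), the receptor of Sema7a and the most abundant plexin, had 23.1, 29, 31.7 and 28 TPM in ZT20 replicates 1 to 4 and 11.7, 12.2 and 12.1 TPM in ZT8 replicates 1 to 3. The 3 ZT8 samples were nearly equal and every ZT20 sample was well above them. Mean levels were 27.9 ± 3.61 TPM at ZT20 (SD, n = 4) versus 12 ± 0.239 TPM at ZT8 (SD, n = 3), a log2 difference of 1.15 (SE 0.16, limma adjusted p = 0.00479). Plxnd1 (ENSMUSG00000030123, chromosome 6), the receptor of Sema3e, had 19.2, 21.5, 24 and 18.8 TPM in ZT20 replicates 1 to 4 and 11, 4.25 and 12 TPM in ZT8 replicates 1 to 3. ZT8 replicate 2 stood below the other ZT8 samples, which were themselves below all ZT20 samples. Its level was 20.9 ± 2.43 TPM at ZT20 (SD, n = 4) versus 9.1 ± 4.22 TPM at ZT8 (SD, n = 3), a log2 difference of 1.22 (SE 0.31, limma adjusted p = 0.0326). Without ZT8 replicate 2 the difference was 0.80 and Plxnd1 still passed, but it lost the call without any 1 of the ZT20 replicates (limma adjusted p = 0.0706 to 0.101).

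Plxna3 (ENSMUSG00000031398, chromosome X), which pairs with Nrp2 as a Sema3f receptor, was much lower, with 3.49, 3.74, 3.47 and 1.84 TPM in ZT20 replicates 1 to 4 and 0.835, 0.00614 and 1.56 TPM in ZT8 replicates 1 to 3. ZT8 replicate 2 was near 0 and ZT20 replicate 4 was close to ZT8 replicate 3, so the groups were separated by a narrow margin. Its ZT8 mean lay below the 1 TPM filter, which it passed only through ZT20. Plxna3 averaged 3.14 ± 0.873 TPM at ZT20 (SD, n = 4) versus 0.802 ± 0.779 TPM at ZT8 (SD, n = 3), a log2 difference of 1.27 (SE 0.37, limma adjusted p = 0.0476). This call was the least stable of the 14: without ZT8 replicate 2 the difference was 0.90 and the adjusted p 0.0600, and 3 of 19 alternatives kept it. Of the plexins that did not pass, Plxna1 and Plxnb2 had positive differences (0.51 and 0.52) and Plxnb3 a negative one (−0.25).

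The neuropilins are the ligand-binding partners of class A plexins. Nrp2 (ENSMUSG00000025969, chromosome 1), which prefers Sema3f, had 31.3, 21.6, 29.5 and 35.4 TPM in ZT20 replicates 1 to 4 and 17.8, 9.24 and 16.9 TPM in ZT8 replicates 1 to 3. ZT20 replicate 2 was the lowest of its group and still above every ZT8 sample. The means of Nrp2 were 29.4 ± 5.79 TPM at ZT20 (SD, n = 4) versus 14.6 ± 4.71 TPM at ZT8 (SD, n = 3), a log2 difference of 0.99 (SE 0.26, limma adjusted p = 0.0344). Nrp1, the Sema3a-binding neuropilin and the more abundant of the pair, had 34.1, 27.2, 40.2 and 36.4 TPM in ZT20 replicates 1 to 4 and 26.6, 20.7 and 22.7 TPM in ZT8 replicates 1 to 3. The groups touched without overlapping, at 27.2 TPM in the lowest ZT20 sample and 26.6 TPM in the highest ZT8 sample. Nrp1 had a log2 difference of 0.54 (SE 0.17, limma adjusted p = 0.0635) and did not pass.

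**Figure D2:**
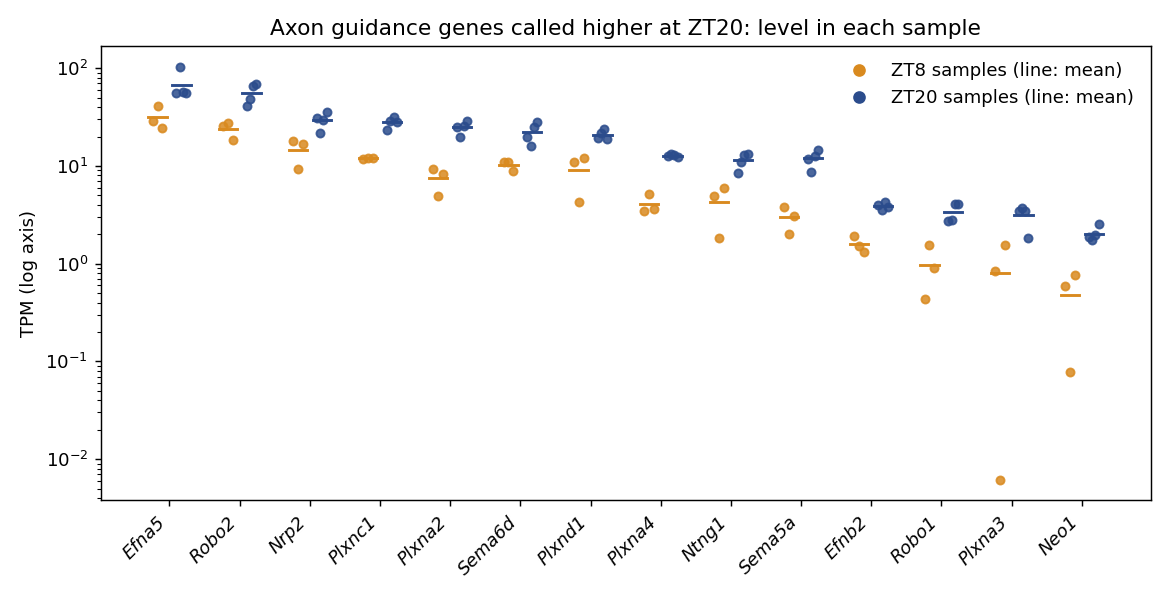
Level in TPM (log axis) of the 14 guidance genes that rose at ZT20, in each of the 4 ZT20 samples (blue) and 3 ZT8 samples (orange), with a line at each group mean. In every gene all blue points lie above all orange points, and single orange points near 0 for Plxna3 and Neo1 are ZT8 replicate 2.

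Both tested Robo receptors passed, where 12.8% of all tested genes were called higher. Robo1 reached the 1 TPM filter only through ZT20, so its call is no support and the family rests on Robo2. Of their Slit ligands 0 of 2 tested passed, with Slit1 just outside the threshold. Robo2 (ENSMUSG00000052516, chromosome 16), the most abundant receptor of the group and the holder of an E-box shown above, had 41.5, 48.8, 66.1 and 68.5 TPM in ZT20 replicates 1 to 4 and 25.7, 27.7 and 18.2 TPM in ZT8 replicates 1 to 3. ZT20 replicates 3 and 4 were the highest, and all ZT20 samples exceeded all ZT8 samples. Its means were 56.2 ± 13.2 TPM at ZT20 (SD, n = 4) versus 23.9 ± 4.98 TPM at ZT8 (SD, n = 3), a log2 difference of 1.19 (SE 0.22, limma adjusted p = 0.0124). Without ZT20 replicates 3 and 4 the difference of Robo2 was 0.91 and did not pass (limma adjusted p = 0.189), as for every gene in that fit. Robo1 (ENSMUSG00000022883, chromosome 16) was expressed at a fraction of that level, with 2.73, 2.83, 4.05 and 4.06 TPM in ZT20 replicates 1 to 4 and 0.43, 1.56 and 0.895 TPM in ZT8 replicates 1 to 3. Here too the groups were apart. Robo1 averaged 3.42 ± 0.736 TPM at ZT20 (SD, n = 4) versus 0.961 ± 0.567 TPM at ZT8 (SD, n = 3), a log2 difference of 1.2 (SE 0.28, limma adjusted p = 0.0261).

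Slit1, a Robo ligand, had 9.53, 9.16, 11 and 9.44 TPM in ZT20 replicates 1 to 4 and 7.64, 2.56 and 4.23 TPM in ZT8 replicates 1 to 3. The ZT20 samples were close together and above every ZT8 sample, but ZT8 was widely spread. Slit1 had a log2 difference of 0.98 (SE 0.29, limma adjusted p = 0.0528) and stood just outside the threshold. Slit2 had a log2 difference of 0.72 with overlap between groups (limma adjusted p = 0.204), and Slit3 was below the filter. Robo3 and Robo4 were below it too, at no more than 0.328 and 0.342 TPM.

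Among the ephrins, 2 of 6 tested genes rose (33.3%, against 12.8% of all tested genes), 1 of each subfamily; with 6 genes that share rests on single calls. Efna5 (ENSMUSG00000048915, chromosome 17), a lipid-anchored ligand of EphA receptors, had 55.9, 104, 56.9 and 55.4 TPM in ZT20 replicates 1 to 4 and 29, 41.5 and 24.5 TPM in ZT8 replicates 1 to 3. ZT20 replicate 2 stood apart from the other 3, which were nearly equal, and all were above ZT8. The level was 68 ± 24 TPM at ZT20 (SD, n = 4) versus 31.7 ± 8.8 TPM at ZT8 (SD, n = 3), a log2 difference of 1.06 (SE 0.27, limma adjusted p = 0.0312). Efna5 still passed without ZT20 replicate 2 (limma adjusted p = 0.0420) and without ZT8 replicate 2, and lost the call without any other 1 library (0.0585 to 0.0850). Efnb2 (ENSMUSG00000001300, chromosome 8), a transmembrane ephrin that binds EphB receptors and Epha4, had 3.94, 3.54, 4.29 and 3.82 TPM in ZT20 replicates 1 to 4 and 1.94, 1.51 and 1.33 TPM in ZT8 replicates 1 to 3. The ZT20 values varied little and were all above the highest at ZT8. Efnb2 averaged 3.9 ± 0.312 TPM at ZT20 (SD, n = 4) versus 1.59 ± 0.312 TPM at ZT8 (SD, n = 3), a log2 difference of 0.92 (SE 0.22, limma adjusted p = 0.0249).

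Efna1, a lipid-anchored ephrin with the highest mean over all 7 samples, did not pass. At ZT20 its mean (67.8 TPM) was near that of Efna5 (68 TPM). It had 67.8, 78.3, 66.6 and 58.7 TPM in ZT20 replicates 1 to 4 and 65.8, 89.1 and 73.3 TPM in ZT8 replicates 1 to 3. The groups overlapped, with the highest value in a ZT8 sample, and the log2 difference of −0.16 (SE 0.15, limma adjusted p = 0.478) had an interval from −0.50 to 0.18. Efnb1, the most abundant ephrin-B, had 6.52, 4.72, 10.7 and 8.88 TPM in ZT20 replicates 1 to 4 and 6.94, 3.72 and 7.99 TPM in ZT8 replicates 1 to 3, with broad overlap and a log2 difference of 0.27 (SE 0.32, limma adjusted p = 0.577). The ephrin-A median was 0.22, near that of all genes, and turned to −0.086 with quantile normalization.

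No Eph receptor passed, 0 of the 6 tested, where 12.8% of all tested genes were called higher. An unadjusted p under 0.05 by limma was reached by 2 of the 6, and by 5122 of all 14800 tested genes. So few genes cannot set the family apart from those shares. Epha5, the most abundant EphA receptor, had 5.56, 12.3, 7.58 and 6.43 TPM in ZT20 replicates 1 to 4 and 6.77, 12 and 5.81 TPM in ZT8 replicates 1 to 3. The highest value of each group was near 12 TPM, so the groups overlapped, with a log2 difference of −0.031 (SE 0.31, limma adjusted p = 0.951). Ephb6, an EphB receptor without kinase activity and the only EphB gene tested, had 9.28, 9.02, 12.4 and 15 TPM in ZT20 replicates 1 to 4 and 9.06, 7.29 and 6.11 TPM in ZT8 replicates 1 to 3. ZT20 replicates 3 and 4 were above all other samples and replicates 1 and 2 were within or beside the ZT8 range. Ephb6 had a log2 difference of 0.54 (SE 0.23, limma adjusted p = 0.139). The EphA median of 0.27 turned to −0.0067 with quantile normalization and −0.064 with the length and GC correction, so no direction can be given for that family. Without ZT8 replicate 2 that median was 0.50, with 5 of 5 positive and 1 called. Epha4, a receptor of both ephrin classes, passed only with array weights and without ZT8 replicate 2.

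Among the netrin-Gs 1 of 2 tested genes rose (Ntng1), and among the netrins 0 of 1. Of the netrin receptors 0 of 2 tested Unc5 genes rose, as did Neo1, which was tested without Dcc and reached the filter only through ZT20. Of all tested genes 12.8% were called higher, and these shares rest on single calls. Ntng1 (ENSMUSG00000059857, chromosome 3) encodes netrin-G1, a lipid-anchored protein that binds the adhesion molecule Lrrc4c and not the classical netrin receptors. It had 8.52, 11, 13 and 13.3 TPM in ZT20 replicates 1 to 4 and 4.91, 1.85 and 5.93 TPM in ZT8 replicates 1 to 3. ZT8 replicate 2 was again the lowest sample, and ZT20 lay above ZT8 throughout. Ntng1 averaged 11.4 ± 2.21 TPM at ZT20 (SD, n = 4) versus 4.23 ± 2.12 TPM at ZT8 (SD, n = 3), a log2 difference of 1.33 (SE 0.33, limma adjusted p = 0.0284). Its paralog Ntng2 had 5.35, 8.88, 15.5 and 14.9 TPM in ZT20 replicates 1 to 4 and 8.26, 4.29 and 34.8 TPM in ZT8 replicates 1 to 3. ZT8 replicate 3 was higher than all other samples while ZT8 replicate 2 was the lowest, and the log2 difference of −0.089 (SE 0.62, limma adjusted p = 0.931) carried the widest interval of the tested members, from −1.50 to 1.32.

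Neo1 (ENSMUSG00000032340, chromosome 9), neogenin, a receptor of netrins and of RGM proteins, was low, with 1.89, 1.74, 1.98 and 2.53 TPM in ZT20 replicates 1 to 4 and 0.594, 0.0785 and 0.764 TPM in ZT8 replicates 1 to 3. It too passed the 1 TPM filter only through ZT20. ZT8 replicate 2 was close to 0, and ZT20 was above ZT8 in all samples. Neo1 averaged 2.04 ± 0.344 TPM at ZT20 (SD, n = 4) versus 0.479 ± 0.357 TPM at ZT8 (SD, n = 3), a log2 difference of 1.06 (SE 0.28, limma adjusted p = 0.0347), and 5 of 19 alternatives kept that call. The one netrin tested, Ntn3, had 0.706, 0.749, 1.35 and 0.78 TPM in ZT20 replicates 1 to 4 and 1.16, 1.27 and 1.26 TPM in ZT8 replicates 1 to 3. All 3 ZT8 samples were within the ZT20 range, set by ZT20 replicate 3, and Ntn3 had a log2 difference of −0.24 (SE 0.25, limma adjusted p = 0.517). Ntn3 was the 1 tested member that reached the 1 TPM filter only through ZT8 (mean 1.23 TPM, against 0.896 TPM at ZT20). Unc5c, a repulsive netrin receptor, had 1.88, 1.89, 1.63 and 3.43 TPM in ZT20 replicates 1 to 4 and 0.374, 1.48 and 1.14 TPM in ZT8 replicates 1 to 3. Every ZT20 value was above the ZT8 values, but ZT20 replicate 4 was far above the others. Its ZT8 mean lay just below the 1 TPM filter, and Unc5c had a log2 difference of 0.69 (SE 0.31, limma adjusted p = 0.155).

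The differences of the members went with transcript length. Their longest annotated transcript had a median of 5625 nt, against 3108 nt for all tested genes. Of the 14 genes that rose, 13 were among the 31 members in the 3 longest of 10 equal length bins of tested genes (4235 nt or more), where 41.9% of members and 27.8% of all 4424 genes were called higher. Outside those bins 1 of 17 members rose, Efna5 (5.88%, against 6.45% of all genes there). The median log2 difference there was 0.52 for the members and 0.10 for all genes, while in the 3 longest bins it was 0.72 and 0.57. In the longest bin alone 10 of 18 members rose, against 36.5% of genes, with median differences of 1.03 and 0.69. Plxna3, Robo1, Neo1 and Unc5c, which reached the 1 TPM filter only through ZT20, all lie in that bin. These 4 genes, 3 of them called, are counted in the member shares and medians of the longest bins, so their part there is no support. With a loess correction of every sample for length and GC content, Sema5a (0.99, limma adjusted p = 0.0391) and Plxna2 (0.87, limma adjusted p = 0.0379) passed. That was 4.17% of the tested members, against 3.58% of all genes called higher in that fit. The members' median was 0.18, against −0.0083 for all genes. All 14 kept a positive difference in that fit, from 0.34 for Nrp2 to 0.99 for Sema5a. The part of length in the result was not tested beyond these values.

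**Figure D3:**
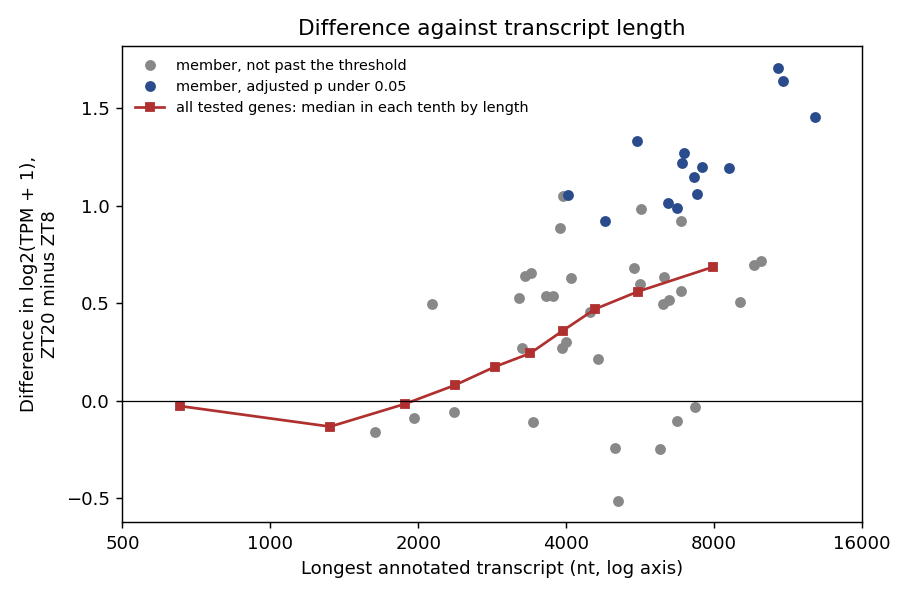
Difference in log2(TPM + 1), ZT20 minus ZT8, against the length of the longest annotated transcript (nt, log axis) for the 48 tested members, with the median of all tested genes in each of 10 length bins in red. The all-gene median climbs to 0.69 in the longest bin, where 10 of the 14 blue points lie. Plxna3, Robo1 and Neo1, which reached the 1 TPM filter only through ZT20, are among those 10.

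Seen per sample, the summed level of the 72 genes was 628, 681, 740 and 767 TPM at ZT20 and 505, 420 and 450 TPM at ZT8. Receptor genes summed to 244, 244, 294 and 302 TPM at ZT20 and 146, 138 and 134 TPM at ZT8. Ligand genes summed to 385, 436, 446 and 465 TPM at ZT20 and 359, 282 and 316 TPM at ZT8. As TPM, both sums were higher in every ZT20 sample than in any ZT8 sample. Median-ratio scaling divides by size factors of 1.02 to 1.12 at ZT20 and 0.848 to 0.959 at ZT8, which narrows both gaps. With those factors the ligand sum of ZT20 replicate 1 falls below that of ZT8 replicate 1, so the separation of the ligand sums depends on the scaling. Receptors made up 35.9% to 39.7% of the group's summed TPM at ZT20 and 28.8% to 32.9% at ZT8, a share that does not depend on a sample-wide scaling factor but is not corrected for the receptors' longer transcripts.

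**Figure D4:**
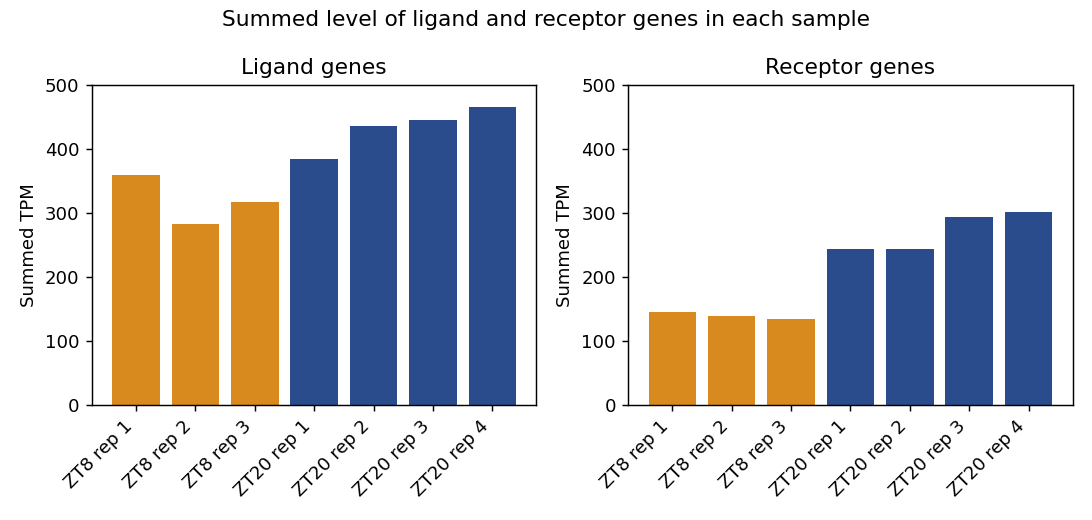
Summed TPM of the 37 ligand genes (left) and 35 receptor genes (right) in each sample, ZT8 in orange and ZT20 in blue. Receptor sums are 134 to 146 TPM at ZT8 and 244 to 302 TPM at ZT20, and ligand sums 282 to 359 TPM and 385 to 465 TPM.

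Genes that act with these receptors were read from lists chosen for their roles. Of 47 genes that carry guidance signals inside the cell, 46 were tested, 15 rose and 0 fell (2 lower at an unadjusted p under 0.05), with a median log2 difference of 0.59 (32.6% higher, against 12.8% of all genes). With median-ratio scaling 9 passed, 2 of them lower. Dpysl2, the collapsin response mediator of semaphorin signalling and a microtubule assembly factor, had 1511, 2178, 1608 and 1628 TPM in ZT20 replicates 1 to 4 and 629, 682 and 539 TPM in ZT8 replicates 1 to 3. All ZT20 samples were more than 2 times the highest ZT8 sample, a log2 difference of 1.48 (SE 0.15, limma adjusted p = 0.00209). Srgap3, a Slit-Robo GTPase-activating protein, had 15 ± 2.62 TPM at ZT20 (SD, n = 4) versus 5.42 ± 1.11 TPM at ZT8 (SD, n = 3), a log2 difference of 1.32 (SE 0.21, limma adjusted p = 0.0084). Trio, an exchange factor for small GTPases downstream of netrin receptors, had 10.8 ± 1.1 TPM at ZT20 (SD, n = 4) versus 4.01 ± 1.82 TPM at ZT8 (SD, n = 3), a log2 difference of 1.3 (SE 0.28, limma adjusted p = 0.0184).

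Of 31 co-receptors and other cues, 26 were tested, 12 rose and 0 fell (0 lower at an unadjusted p under 0.05), with a median of 0.75 (46.2% higher). With both group means at 1 TPM or more it was 11 of 24 (45.8%, against 12.9% of such genes). Rtn4rl1, a Nogo receptor homologue that binds growth-inhibitory proteoglycans, had 27.9, 18.3, 24.7 and 21.8 TPM in ZT20 replicates 1 to 4 and 4.0, 4.23 and 2.45 TPM in ZT8 replicates 1 to 3. No ZT8 sample came near the ZT20 range, and the difference on the log2(TPM + 1) scale exceeded that of any member, a log2 difference of 2.41 (SE 0.22, limma adjusted p = 0.00193). Flrt1, a leucine-rich adhesion protein of the family that binds Unc5 receptors, reached the 1 TPM filter only through ZT20 and had 3.33 ± 0.549 TPM at ZT20 (SD, n = 4) versus 0.598 ± 0.528 TPM at ZT8 (SD, n = 3), a log2 difference of 1.49 (SE 0.30, limma adjusted p = 0.0158). Cntn2, an axonal adhesion molecule that acts beside L1 proteins in semaphorin responses, had 33.7 ± 4.86 TPM at ZT20 (SD, n = 4) versus 12 ± 4.6 TPM at ZT8 (SD, n = 3), a log2 difference of 1.48 (SE 0.27, limma adjusted p = 0.0115). After the length and GC correction 3 signalling genes, 2 of them lower, and 2 co-receptors and cues passed, in a fit that called 3.58% of all genes higher and 5.26% lower.

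**Figure D5:**
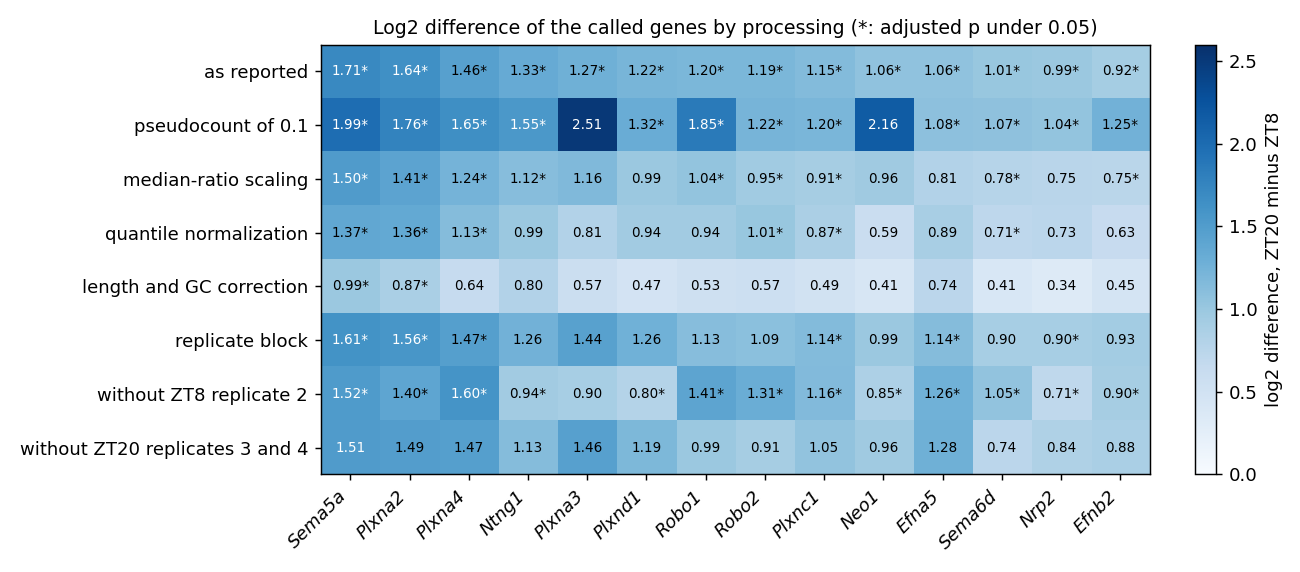
Log2 difference, ZT20 minus ZT8, of the 14 genes that rose (columns) as reported and under 7 other settings (rows), with an asterisk at an adjusted p under 0.05. All values are positive, Sema5a and Plxna2 hold the most asterisks, and no gene has one without ZT20 replicates 3 and 4.

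Of the 14 genes, 11 overlap another annotated gene in GENCODE M21 (all but Plxna3, Plxnd1 and Efna5), and how reads were shared between overlapping genes is not given in the sources used here. Sema5a and Plxna2 passed in 16 of 20 alternatives, Plxna4 and Plxnc1 in 15, Robo2 in 13 and Sema6d in 11. Left out in turn, single libraries moved the number of members called from 4 without ZT20 replicate 3 (Sema5a, Plxna2, Plxna4 and Plxnc1) to 19 without ZT8 replicate 2. The share of all tested genes called higher moved with them, from 3.67% (members 8.33%) to 16% (members 39.6%). It was 5 without ZT20 replicate 4, which added Robo2, and 6 without ZT20 replicate 1, which added Robo2 and Sema6d, with limma in each case. Without ZT20 replicate 3, Robo2 stood at an adjusted p of 0.0516, Sema6d at 0.0708, Efna5 at 0.0743 and Plxna3 at 0.125. Without ZT20 replicate 4, Sema6d stood at 0.0595, Plxnd1 at 0.0805, Ntng1 at 0.0895, and Nrp2 and Neo1 at 0.102. Without ZT8 replicate 3, 9 members passed, and Sema6d (0.0517), Nrp2 (0.0523), Robo1 (0.0592), Efnb2 (0.0607) and Efna5 (0.0850) did not. The sizes moved less than the calls: over these 7 fits the log2 difference of Plxna4 ran from 1.37 to 1.6, that of Efnb2 from 0.85 to 1.02 and that of Robo2 from 1.02 to 1.33. Plxnd1 (0.80 to 1.45), Nrp2 (0.71 to 1.15), Ntng1 (0.94 to 1.58) and Plxna3 (0.90 to 1.58) varied by over 1.5 times, with the lowest values without ZT8 replicate 2, as did Efna5 (0.84 to 1.26), with its lowest value without ZT20 replicate 2. All 14 differences kept their sign in every alternative run.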

How the data were processed

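Gene expression was measured by RNA sequencing of 7 mouse samples, 4 at ZT20 and 3 at ZT8, grouped by their titles. The authors deposited 1 table of TPM values with a column per sample, all 7 of which were used (0 columns of per-sample values left out). Per the submitters' processing notes, the tools included FastQC 0.11.9, Trim Galore 0.6.6 and Salmon 1.6.0, with the build GRCm39; their settings and order are not given in the sources used here. TPM has the same sum in each sample, so a rise of some genes lowers the values of others, and it keeps no sequencing depth.

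Values were tested as log2(TPM + 1), a scale that understates the change of low genes. The 14800 of 54309 genes whose mean over the 7 samples reached 1 TPM were fitted with limma 3.58.1 in R 4.3.3 (intensity trend, two-sided, no covariates), with Benjamini-Hochberg adjustment over all of them and a threshold of 0.05. On simulated data for 14800 genes with 200 changed, the procedure called 23.5% of those changed by 1.0 and 61.0% of those changed by 1.5 on the log2 scale, and it called 0 when none was changed. The members and gene lists were chosen with earlier results of these data known. Values in every sample are given for each gene that passed and for the most abundant gene of each family, and for listed genes that passed at most the 3 with the largest differences are named. The call of 1 satellite glia marker is not reported here.

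Transcript length, GC content and overlap came from GENCODE M21. Promoters came from RefSeq (GRCm38.p6), a build other than that of the deposited table, so they were matched by symbol only. Alternatives were a pseudocount of 0.1, no filter, a minimum of 5 TPM, median-ratio scaling, quantile normalization, a loess correction for length and GC content (span 0.3), the replicate block alone and with that correction, a marker score, array weights, no intensity trend, and samples left out (ZT20 replicates 2 to 4 together as an addition after seeing the data).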

Additional observations from a re-analysis of the deposited data

Results flagged for a closer look

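Of 27 genes examined, 4 had 1 ZT20 sample far from the other 3, measured as the gap to the nearest sample divided by the range of the group and set against Dixon's critical value. Chance gives such a sample in about 5% of groups, 1.35 of 27. For Efna5 the share was 0.969, with 104 TPM in ZT20 replicate 2 and 55.4 to 56.9 TPM in the others. For Ntn3 it was 0.884, with 1.35 TPM in replicate 3 and 0.706 to 0.780 TPM in the others. Plxna3 (0.859) was at 1.84 TPM in replicate 4 against 3.47 to 3.74 TPM, and Unc5c (0.859) was at 3.43 TPM in replicate 4 against 1.63 to 1.89 TPM.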

How the results depend on the processing

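Numbers follow the order members, signalling list, list of co-receptors and other cues, of which 14, 15 and 12 passed; the list counts under alternatives were added after seeing the data. Without a filter 6, 6 and 7 passed. Median-ratio scaling left 9, 9 and 11, and quantile normalization 6, 7 and 11. Correction for length and GC content left 2, 3 (2 of them lower) and 2. The replicate block left 6, 5 and 8, and the block with the length and GC correction 1 (Efna5), 1 and 1. Array weights raised the members to 22. With the marker score as covariate 0, 0 and 0 passed by limma (16, 13 and 15 at an unadjusted p under 0.05), and without ZT20 replicates 3 and 4 it was 0, 0 and 0 (13, 16 and 12); of all genes 17.7% and 16.4% had such a p. Without ZT20 replicates 2 to 4, added after seeing the data, it was again 0, 0 and 0 (4, 4 and 5, with 7.66% of all genes). Leaving out 1 library gave 4 to 19, 3 to 12 and 4 to 14, while the share of all genes called higher ran from 3.67% to 16% (members 8.33% to 39.6%). Read against the share of all genes called higher in the same fit, the members called were 29.2% against 12.8% as reported, 8.33% against 3.07% without a filter, 18.8% against 7.36% with median-ratio scaling, 12.5% against 6.91% with quantile normalization, 4.17% against 3.58% with the length and GC correction, 12.5% against 6.02% with the block, 2.08% against 1.57% with the block and that correction, and 45.8% against 20.1% with array weights. The members' median log2 difference of 0.63 became 0.85 with a pseudocount of 0.1, 0.46 with median-ratio scaling, 0.18 with the length and GC correction, 0.34 with quantile normalization, 0.12 with the block and that correction, 0.96 with the marker score and 0.46 without ZT20 replicates 3 and 4. Leaving out 1 library gave 0.54 to 0.70. The cause of these shifts was not tested. No member passed as lower in any of these fits, where at most 4 (length and GC correction) had an unadjusted p under 0.05 in that direction. For the 14 genes, 138 results under alternatives no longer passed, 138 did and 0 reversed. Same-numbered samples did not deviate together (correlations −0.014, 0.15 and 0.083 for replicates 1 to 3), and 2 of 6 samples correlated best with their own number, so the numbers were not taken as pairs. The values carry no depth, so no counting error can be given for low genes such as Neo1 and Plxna3.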
